A study of Bos taurus with 6 samples.

Results

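The genes described here code for the enzymes that put sialic acid, GalNAc, galactose, GlcNAc, fucose, xylose and sulfate onto the glycans of secreted and cell surface molecules, measured in bovine granulosa cells (GC) plated at normal or at high density. The enzyme families were chosen with earlier results of these data known. They were ST3GAL, ST6GAL, ST6GALNAC, ST8SIA, GALNT, GALNTL, B3GALT, B4GALT, B3GNT, FUT, MGAT, CHST, HS2ST, HS3ST, HS6ST, NDST and XYLT. All rows of the deposited array table with a symbol of these families were taken, by symbol alone. This gave 106 of the 26773 transcript clusters of the table, where a transcript cluster is the array's unit for a gene. They carry 105 symbols, since GALNTL6 is represented by 2 transcript clusters. The cultures were primary GC, the somatic cells that line the follicle and make estradiol, from pools of abattoir ovaries of many cows, and 3 cultures were plated at normal and 3 at high density. All 6 were kept without serum on collagen for 9 days, in alpha-MEM to which androstenedione, FSH and IGF-1 had been added, and by design they differed only in the number of cells seeded per well. Each culture was measured on 1 Bovine Gene 1.0 ST Array. As models, the cultures are pools of animals of undefined cycle stage taken from small to medium sized follicles, and whether cultures with the same number came from the same pool is not given in the sources used here.

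Glycans are built stepwise in the Golgi apparatus by transferases that each add a defined sugar or sulfate group from an activated donor. Polypeptide GalNAc transferases start mucin-type O-glycans, xylosyltransferases start the glycosaminoglycan chains of proteoglycans, and branching, galactose, GlcNAc and fucose transferases extend N-glycans, O-glycans and glycolipids, on which sialyltransferases place the negatively charged terminal sugar. In the follicle, GC secrete a proteoglycan-rich matrix into the follicular fluid, and the glycans of gonadotropins and of cell surface receptors are known to bear on binding and clearance.

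Signals are the log2 values made by the authors with RMA, and a difference is a log2 fold change (FC), high minus normal density, given with its standard error. A transcript cluster is termed called when limma gave an FC above 1.5 in size (0.585 on the log2 scale), a p below 0.05 and a false discovery rate (FDR) below 0.05 over the whole table. "Rose" and "fell" are used of called genes. Errors of group means are SD over 3 cultures. A signal at or below 4.62, the 95th percentile of the 82 reporter control rows, is termed at background, and 51.2% of the transcript clusters of the table had neither group mean above it. Signals of different genes come from different probes and are not set against each other. The limma p-values rest on the spread within these 3 and 3 cultures, moderated by a variance common to all transcript clusters. An exact permutation test between the groups could not go below p = 0.1. Counts at an unadjusted p below 0.05 by limma are given below without the share of the whole table, which was not counted. That share is at least the 19.1% of the table that passed the FDR, so these counts alone do not set a list apart.

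The labelled cell type was checked against marker lists, and 11 of 12 granulosa markers were above background in both groups. The mean signal of this list was 8.12 to 8.29 in the cultures of normal density and 7.30 to 7.38 in those of high density, and 5 of its genes (CYP19A1, FSHR, INHA, INHBA and FOXL2) fell. Lists of 9 leukocyte and 5 red blood cell markers had 0 genes called by limma or by the methods' t-test, with 2 and 1 at an unadjusted p below 0.05. Both lists were at background throughout, with PTPRC at 2.16 and 1.94, and their mean signals were 3.34 to 3.40 and 2.79 to 2.83 at normal and 3.35 to 3.50 and 2.76 to 3.01 at high density. Of 8 endothelial markers, 7 were at background in both groups, PECAM1 and CDH5 among them, and CLEC14A was called higher within that range. TEK, also at background, passed the FDR but not the FC threshold in the other direction, with -0.36 ± 0.09. VWF was above background, with 5.39 at normal and 5.70 at high density, and did not pass the FDR. The mean signal of the endothelial list was 2.99 to 3.08 at normal and 3.09 to 3.15 at high density. Of 4 theca markers, CYP17A1 and ANPEP were at background, INSL3 rose from 7.20 to 9.02 and LHCGR was called lower below background. LHCGR is not particular to theca, since the study also followed it as a transcript of GC. The theca list had a mean signal of 4.39 to 4.44 at normal and 4.53 to 4.68 at high density. The 6 markers of surface epithelium had mean signals of 4.69 to 4.72 at normal and 4.87 to 4.98 at high density. Of these, UPK1B rose by 0.62, from 9.46 to 10.08, and MSLN was above background in both groups (5.61 and 5.75). The other 4 were at background. Genes of the granulosa, theca, endothelial and surface epithelium lists moved with density, as did the enzymes below, and their part in those results was not tested. In bulk RNA, fewer cells of a type and less RNA per cell cannot be told apart.

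At high density, 15 of the 106 transferase transcript clusters rose and 2 fell, which is 16.0% called. Of all transcript clusters, 7.49% were called, 3.97% higher and 3.51% lower. ST8SIA4, the polysialyltransferase, rose most, by 2.88 ± 0.15, and CHST8, a sulfotransferase of GalNAc, and ST3GAL6, a sialyltransferase of galactose, both fell by 1.12. The other 14 rises lay between 0.61 and 1.23, and were found in the families GALNT (5 genes), FUT and B3GNT (2 genes each), and with 1 gene each in ST8SIA, B3GALT, ST3GAL, NDST and XYLT. The FDR threshold alone was passed by 37 members (34.9%), 29 of them higher and 8 lower, against 19.1% of the table. The groups of cultures did not overlap for 58 members (54.7%), against 37.3% of the table, and for 42 of these the cultures of high density were the higher ones. The median log2 FC of the members was 0.10, beside 0.02 over the table, and 70 members (66.0%) had a difference above 0 and 36 below, against 53.6% above 0 over the table. The 20 members past the FDR but not the FC threshold did not all keep that result. Of these, 8 passed the FDR with each culture left out and in all other alternatives that gave a value at that threshold. They were ST6GALNAC4, B4GALT3, B4GALT5, B4GALT6, CHST2, CHST9, HS6ST1 and HS6ST2. The other 12 lost it with at least 1 of the cultures left out. They were B3GNT1, B3GNT5, GALNT5, GALNT11, HS3ST3A1, MGAT1, MGAT3, MGAT4A, MGAT5, ST3GAL3, ST6GAL1 and ST8SIA5.

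Not all of these genes were measurable. Both group means were above background for 57 members, 1 of them for 5 and neither for 44. Of the 17 called members, 10 were above background in both groups, 3 in 1 group, and 4 (ST8SIA2, GALNT3, FUT9 and NDST3) in neither. For those 4, log2 differences are given, but no fold.

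**Figure D1:**
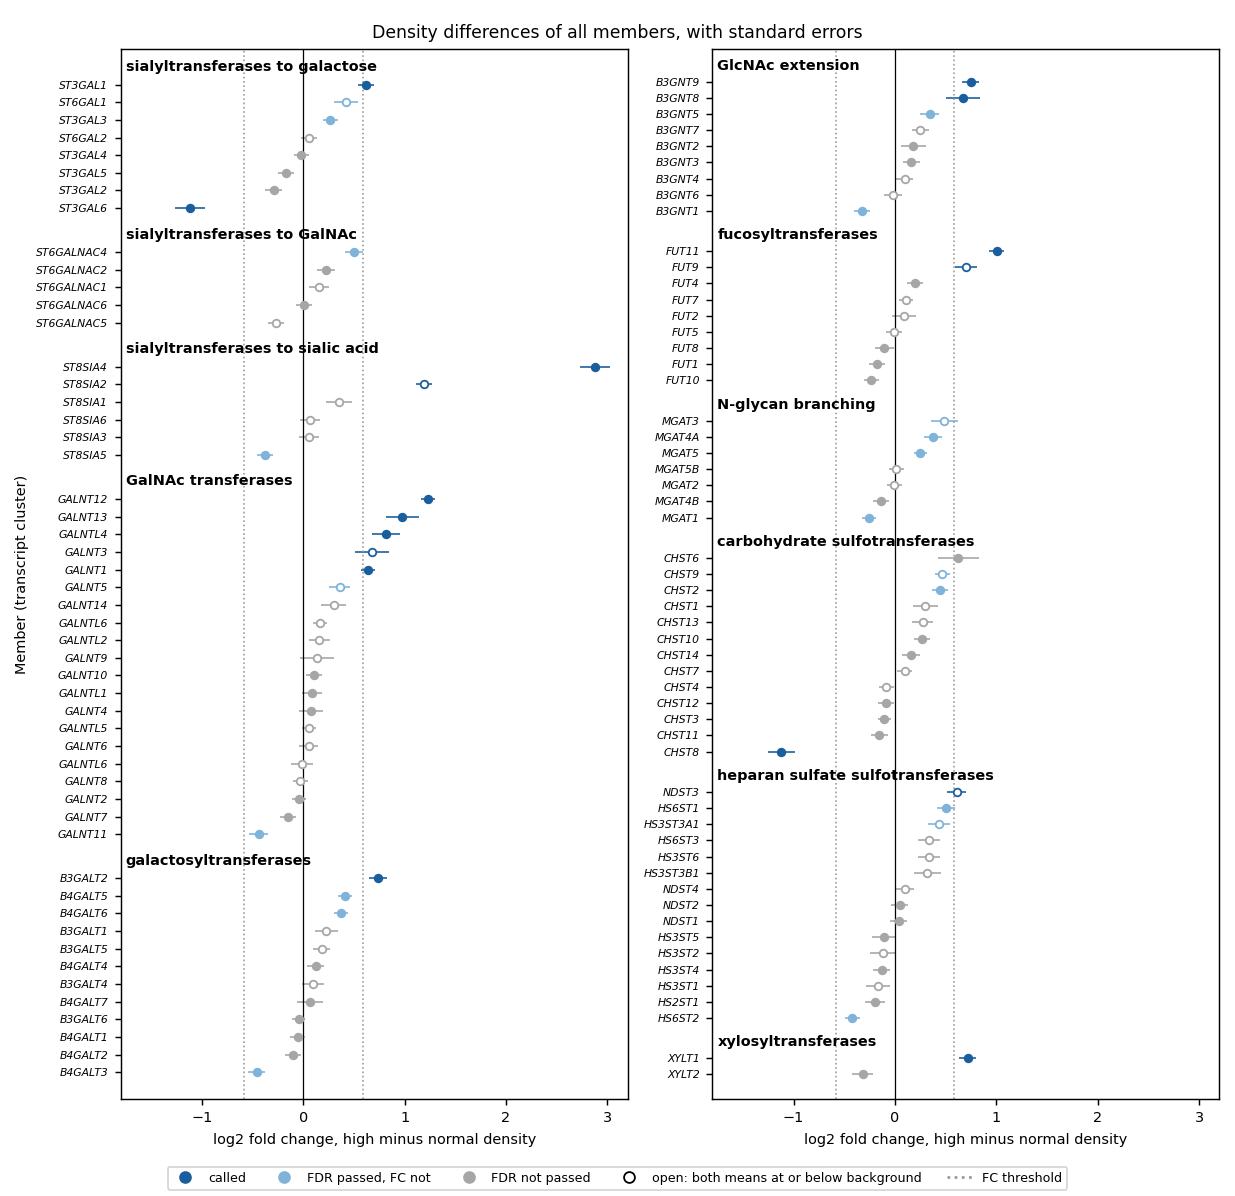
Log2 fold change, high minus normal density, of each of the 106 transcript clusters with its standard error, by enzyme class. Dark points are called, light points passed the FDR but not the FC threshold (dotted lines at 0.585 to either side of 0), and open points had both group means at or below background. ST8SIA4 stands at 2.88, ST3GAL6 and CHST8 at -1.12, and the other members lie between -0.46 and 1.23.

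The sialyltransferases that add sialic acid to another sialic acid (ST8SIA, 6 genes) held the largest change among the members. ST8SIA4 synthesizes polysialic acid, the long negatively charged chain best known on the neural cell adhesion molecule. Its signals were 5.58, 5.54 and 5.22 at normal and 8.19, 8.62 and 8.17 at high density. All cultures of high density lay far above those of normal density, with a gap larger than the spread within either group. The means were 5.45 ± 0.19 and 8.33 ± 0.25, a difference of 2.88 ± 0.15 or 7.36-fold (limma's adjusted p = 3.99e-05). With any single culture left out, it stayed between 2.73 and 2.96.

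ST8SIA2, the other polysialyltransferase, had signals of 3.27, 3.45 and 3.33 at normal and 4.48, 4.57 and 4.56 at high density. The groups were well apart but all 6 signals were at background, so that the difference of 1.19 ± 0.08 (limma's adjusted p = 9.44e-05) is no measure of a fold. ST8SIA5, which adds sialic acid to gangliosides, differed in the other direction, with means of 7.999 ± 0.010 and 7.619 ± 0.123. Its difference of -0.38 ± 0.08 passed the FDR (limma's adjusted p = 0.0166) but not the FC threshold, and its groups did not overlap. ST8SIA1, ST8SIA3 and ST8SIA6 were at background and passed neither threshold. ST8SIA1 is the enzyme that makes the ganglioside GD3.

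Proteins known to carry polysialic acid were looked up after the values of ST8SIA4 were seen. NCAM1, the main carrier, had signals of 10.50, 10.52 and 10.46 at normal and 10.62, 10.51 and 10.58 at high density. These groups overlapped, and the difference was 0.08 ± 0.07 (limma's adjusted p = 0.463). CADM1, an adhesion molecule of the immunoglobulin superfamily, rose from 8.54 ± 0.01 to 9.19 ± 0.03 (difference 0.66 ± 0.06, limma's adjusted p = 0.000532). NRP2, a receptor for semaphorins and VEGF, was called higher with both means at background (3.40 and 4.25), and CCR7, a chemokine receptor, was at background with a difference of -0.08.

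Among the 8 sialyltransferases that act on galactose, 1 rose and 1 fell (25.0% called, against 7.49% of the table). ST3GAL6, which caps N-acetyllactosamine ends, had signals of 5.47, 5.50 and 5.65 at normal and 4.27, 4.76 and 4.24 at high density. The groups did not overlap, and at high density replicate 2 alone remained above background. The means were 5.54 ± 0.09 and 4.42 ± 0.29, a difference of -1.12 ± 0.15 (limma's adjusted p = 0.00197). ST3GAL1, which caps the galactose of simple O-glycans, had signals of 5.86, 5.87 and 5.74 at normal and 6.40, 6.38 and 6.54 at high density. All cultures of high density were above those of normal density, by 0.62 ± 0.08 or 1.53-fold in the means (limma's adjusted p = 0.00173). That value is close to the FC threshold, and the call was lost without replicate 3 of either density (0.57 at the lowest). ST6GAL1, which caps N-glycans, differed by 0.42 ± 0.12 with both means at background, and ST3GAL3 also passed the FDR alone. ST3GAL2, ST3GAL4, ST3GAL5 and ST6GAL2 passed neither threshold. ST3GAL5, which makes the ganglioside GM3, had means of 8.19 ± 0.07 and 8.02 ± 0.09, with a difference of -0.17 ± 0.08.

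Of the 5 sialyltransferases that act on GalNAc, 0 were called by limma or by the methods' t-test, and 3 had an unadjusted p below 0.05. The largest difference belonged to ST6GALNAC4, which adds a further sialic acid to already sialylated O-glycans, and it passed the FDR but not the FC threshold. Its signals were 8.86, 8.86 and 8.79 at normal and 9.44, 9.18 and 9.38 at high density. The groups did not overlap, and the difference was 0.50 ± 0.09 (limma's adjusted p = 0.00694). The other 4 lay between -0.27 and 0.23 and did not pass the FDR.

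**Figure D2:**
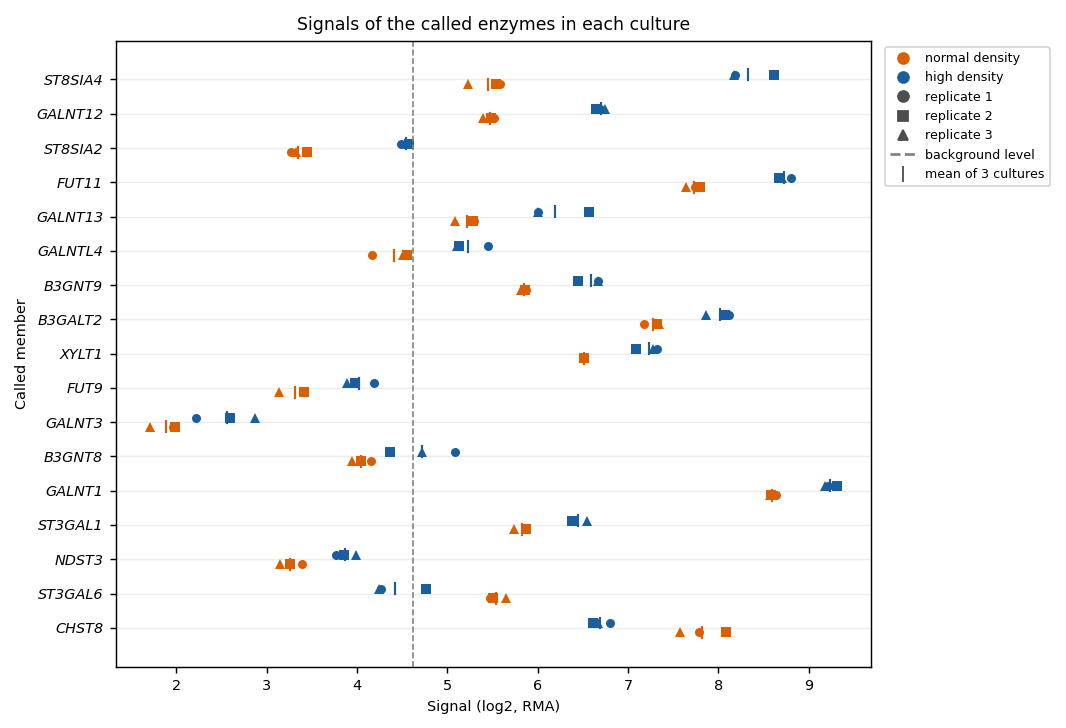
Log2 signal of the 17 called transferases in each of the 6 cultures (orange, normal density; blue, high density; marker shapes give the replicate number; short vertical lines are means of 3 cultures). The groups do not overlap for any of them, and ST8SIA2, GALNT3, FUT9 and NDST3 lie wholly to the left of the background level at 4.62.

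The polypeptide GalNAc transferases, which start O-glycans by linking GalNAc to serine or threonine, were the enzyme class with the most members. Of 20 transcript clusters 5 rose and 0 fell by limma (25.0% called, against 7.49% of the table), and their median difference was 0.12. The methods' t-test called 2 rises and 0 falls, and at an unadjusted p below 0.05 there were 7 positive and 1 negative differences. GALNT12 rose most. It had signals of 5.52, 5.48 and 5.40 at normal and 6.69, 6.65 and 6.75 at high density, and both groups were tight. The means were 5.47 ± 0.06 and 6.70 ± 0.05, a difference of 1.23 ± 0.07 or 2.34-fold (limma's adjusted p = 5.97e-05).

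GALNT13, a member of the family best known from neurons, had signals of 5.292, 5.283 and 5.079 at normal and 6.001, 6.572 and 6.007 at high density. Replicate 2 of high density stood above the other cultures of its group, and the groups did not overlap. The difference was 0.98 ± 0.16, or 1.97-fold (limma's adjusted p = 0.00562), and 0.79 without that replicate. GALNT1, a broadly expressed isoenzyme that acts on many substrates, rose from 8.63, 8.58 and 8.57 to 9.22, 9.31 and 9.18, with no overlap and little spread. Its difference of 0.64 ± 0.07 was 1.56-fold (limma's adjusted p = 0.000848), and it was called with any culture left out. GALNTL4, listed in RefSeq as GALNT18, had signals of 4.17, 4.55 and 4.50 at normal density, all at background, and 5.45, 5.13 and 5.10 at high density, all above it. The rise was at least 1.52-fold over the background level (measured difference 0.82 ± 0.14, limma's adjusted p = 0.00578). GALNT3, known for protecting the hormone FGF23 from cleavage, had signals of 1.96, 1.99 and 1.71 at normal and 2.22, 2.60 and 2.87 at high density. All 6 were at background and those of high density spread widely (difference 0.67 ± 0.17, limma's adjusted p = 0.0287), and the call was kept only when replicate 1 of high density was left out (0.52 to 0.85 with each culture left out in turn).

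GALNT11, which is known to glycosylate the Notch receptor, was the member of this family with the most negative difference. Its means were 6.88 ± 0.03 and 6.44 ± 0.17, without overlap, and its difference of -0.44 ± 0.10 passed the FDR (limma's adjusted p = 0.019) but not the FC threshold. The FDR was passed in only 1 of the 6 fits with a culture left out, and not in the methods' t-test. GALNT5 also passed the FDR alone, at background. The remaining 13 transcript clusters did not pass the FDR. Among them GALNT2, GALNT7, GALNT10 and GALNTL1 (in RefSeq GALNT16) were above background in both groups, and their differences lay between -0.15 and 0.11. Both transcript clusters of GALNTL6 were at background, with differences of -0.02 and 0.17.

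Among the galactosyltransferases, 1 of 12 rose (8.33% called, near the 7.49% of all transcript clusters). B3GALT2, which adds galactose to GlcNAc, had signals of 7.18, 7.32 and 7.34 at normal and 8.11, 8.07 and 7.87 at high density. The lowest culture of high density was above the highest of normal density, and the difference was 0.74 ± 0.09 or 1.67-fold (limma's adjusted p = 0.00156). B4GALT3, an enzyme of N-acetyllactosamine synthesis, differed by -0.46 ± 0.09, with means of 7.11 ± 0.08 and 6.66 ± 0.11 (limma's adjusted p = 0.00943). B4GALT5 and B4GALT6, which make lactosylceramide, the starting point of the gangliosides, both passed the FDR alone in the positive direction, B4GALT5 with 0.41 ± 0.07 and B4GALT6 with 0.37 ± 0.07. B4GALT1, B4GALT2 and B4GALT4 were well above background and their differences of -0.06, -0.10 and 0.12 did not pass the FDR.

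Of the 9 genes with a B3GNT symbol, most of whose enzymes extend chains by GlcNAc, 2 rose (22.2% called, against 7.49% of the table). B3GNT9 went from 5.87, 5.86 and 5.81 at normal to 6.67, 6.45 and 6.66 at high density, without overlap (difference 0.75 ± 0.08, 1.68-fold, limma's adjusted p = 0.000964). B3GNT8, which extends poly-N-acetyllactosamine on branched N-glycans, had signals of 4.16, 4.04 and 3.95 at normal density and 5.08, 4.36 and 4.72 at high density. All normal cultures and replicate 2 of high density were at background, and the rise was at least 1.07-fold (measured difference 0.67 ± 0.17, limma's adjusted p = 0.0327). Its call was kept only when replicate 2 of high density was left out, and the difference ranged from 0.49 to 0.85 with each culture left out in turn. B3GNT5, which starts the lacto-series of glycolipids, had 0.34 ± 0.09 and passed the FDR alone. B3GNT1, listed in RefSeq as B4GAT1 and known for priming the laminin-binding glycan of dystroglycan, passed it with -0.32 ± 0.08 (limma's adjusted p = 0.0277), with means of 7.41 ± 0.05 and 7.09 ± 0.10.

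The fucosyltransferases had 2 called genes among 9 (22.2%, against 7.49% of the table). FUT11 had signals of 7.74, 7.80 and 7.64 at normal and 8.81, 8.67 and 8.70 at high density. Both groups were tight, and the difference was 1.002 ± 0.077, or 2.003-fold (limma's adjusted p = 0.000197). FUT9, which makes the Lewis X structure, had signals of 3.40, 3.41 and 3.13 at normal and 4.18, 3.98 and 3.89 at high density. These were all at background and did not overlap (difference 0.70 ± 0.11, limma's adjusted p = 0.00486). FUT8, which adds the core fucose of N-glycans, had means of 7.12 ± 0.08 and 7.02 ± 0.14 and did not pass the FDR. None of FUT1, FUT4 and FUT10 passed it, with differences from -0.23 to 0.20 and non-overlapping groups.

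For the N-glycan branching enzymes, 0 of 7 were called by limma or by the methods' t-test. At an unadjusted p below 0.05 there were 4, and the same number passed the FDR alone. MGAT3, which adds the bisecting GlcNAc, had the largest difference, 0.49 ± 0.13, with both means at background (2.30 and 2.78). MGAT4A, which starts a branch, had signals of 7.99, 7.91 and 8.06 at normal and 8.28, 8.51 and 8.28 at high density. The groups did not overlap, and the difference was 0.37 ± 0.09 (limma's adjusted p = 0.0256). MGAT5, the enzyme of the branch that poly-N-acetyllactosamine is built on, and MGAT1, the enzyme that opens the way to complex N-glycans, passed the FDR in opposite directions, with 0.25 ± 0.07 and -0.26 ± 0.07. Both passed it in only 1 of the 6 fits with a culture left out.

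The carbohydrate sulfotransferases (CHST, 13 genes) had 0 rises and 1 fall by limma (7.69% called, near the 7.49% of all transcript clusters). The methods' t-test gave the same counts, and 6 positive differences had an unadjusted p below 0.05. CHST8 transfers sulfate to terminal GalNAc and is best known for the sulfated N-glycans of luteinizing hormone in the pituitary gland. Its signals were 7.78, 8.09 and 7.57 at normal and 6.80, 6.61 and 6.67 at high density. The lowest normal culture was above the highest culture of high density, and all 6 were above background. The means were 7.81 ± 0.26 and 6.69 ± 0.10, a difference of -1.12 ± 0.13 or 0.46-fold (limma's adjusted p = 0.0013), and with any culture left out it lay between -1.24 and -0.98. CHST9, which has the same activity, differed by 0.47 ± 0.07 with both means at background (2.16 and 2.63).

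CHST2, which sulfates GlcNAc, passed the FDR but not the FC threshold, with means of 5.30 ± 0.11 and 5.75 ± 0.05 (difference 0.44 ± 0.08, limma's adjusted p = 0.00897). CHST6, known for the keratan sulfate of the cornea, was past the FC threshold with 0.63 ± 0.20 but not past the FDR (limma's adjusted p = 0.0684). Its signals of 3.90, 4.31 and 4.49 at normal density were at background, and those at high density, 5.19, 4.56 and 4.83, reached from background upward. The chondroitin sulfotransferases CHST3, CHST11 and CHST12, which sulfate GalNAc in chondroitin chains, were above background in both groups and did not pass the FDR, with differences from -0.15 to -0.09.

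In heparan sulfate, 1 of 15 sulfotransferases was called (6.67%, near the 7.49% of all transcript clusters). NDST3, of the family that replaces acetyl by sulfate groups on glucosamine, had signals of 3.39, 3.26 and 3.14 at normal and 3.77, 3.86 and 3.99 at high density. All were at background without overlap (difference 0.61 ± 0.09, limma's adjusted p = 0.00424), and the call was lost without replicate 3 of either density (0.55 at the lowest). NDST1 and NDST2, the family members with signals above background, had differences of 0.04 and 0.05 and did not pass the FDR. The pair HS6ST1 and HS6ST2, which sulfate glucosamine at the same carbon, passed the FDR in opposite directions. HS6ST1 had signals of 6.37, 6.45 and 6.25 at normal and 6.97, 6.73 and 6.89 at high density (difference 0.50 ± 0.09, limma's adjusted p = 0.00862). HS6ST2 had 6.26, 6.33 and 6.22 at normal and 5.91, 5.77 and 5.86 at high density (difference -0.42 ± 0.07, limma's adjusted p = 0.00675). Neither pair of groups overlapped, and neither difference reached the FC threshold. HS3ST3A1, an enzyme of rare heparan sulfate motifs, passed the FDR at background with 0.44 ± 0.11, and HS2ST1, which sulfates the uronic acid, had a difference of -0.20 ± 0.10 and did not pass it.

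The xylosyltransferases link xylose to proteoglycan core proteins. XYLT1 was at 6.51 in each normal culture and at 7.32, 7.09 and 7.28 at high density. All cultures of high density were higher, by 0.72 ± 0.08 or 1.64-fold in the means (limma's adjusted p = 0.00107). XYLT2 was at 6.68, 6.91 and 6.62 at normal and at 6.56, 6.32 and 6.39 at high density, a difference of -0.32 ± 0.10 that did not pass the FDR (limma's adjusted p = 0.0733).

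**Figure D3:**
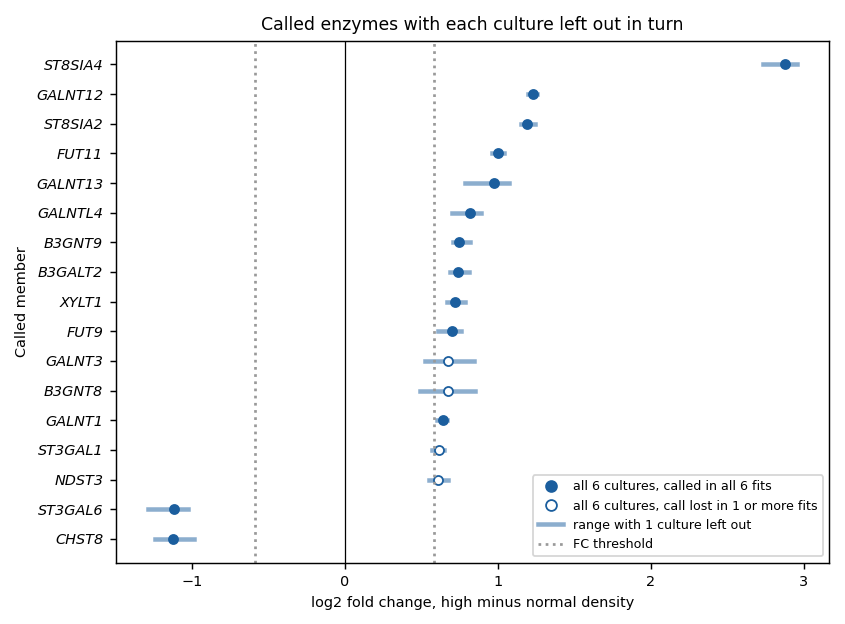
Log2 fold change of the 17 called transferases with all 6 cultures (points) and its range when each culture is left out in turn (bars). Filled points were called in all 6 of these fits, which holds for 13 genes, and open points (ST3GAL1, NDST3, B3GNT8 and GALNT3) lost the call in at least 1, with bars that cross the FC threshold at 0.585 (dotted).

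The 6 cultures did not contribute alike. Replicate 2 was the lowest of the high density cultures for 59 of the 106 members (55.7%), against 44.1% of the table, and the highest for 21 (19.8%), against 34.7%. The SD was larger at high than at normal density for 75 members (70.8%), against 68.3% of the table, with medians of 0.11 and 0.07 over the members. For ST8SIA4 and GALNT13 replicate 2 was the highest of its group, and for B3GNT8 and XYLT1 the lowest.

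Genes that supply, precede or use these transferases were described from 10 lists with 127 genes, of which 121 were matched by symbol in 124 transcript clusters. Of these 16 rose and 5 fell, so that 12.9% were called higher and 4.03% lower, against 3.97% and 3.51% of all transcript clusters. The FDR was passed by 46 (37.1%, against 19.1%), and the median log2 FC was 0.08, against 0.02. In the supply of sialic acid, GNE, the enzyme that limits its synthesis, had signals of 6.91, 7.07 and 6.98 at normal and 7.57, 7.73 and 7.75 at high density. These groups did not overlap, and the rise was 0.70 ± 0.08 or 1.62-fold (limma's adjusted p = 0.00129). CMAS, which activates sialic acid, and SLC35A1, which carries the activated form into the Golgi apparatus, did not pass the FDR, with 0.32 and 0.02. NANS and NANP, of the same supply, passed the FDR but not the FC threshold, in opposite directions, with 0.27 ± 0.07 and -0.41 ± 0.12. In the supply of fucose, FPGT, an enzyme of the salvage route, fell from 5.15 ± 0.11 to 4.28 ± 0.38 (difference -0.87 ± 0.18, limma's adjusted p = 0.014), and the call was lost without replicate 3 of normal or replicate 1 of high density (-1.09 to -0.73 with each culture left out in turn). Of 7 genes of the sulfate donor 0 were called by limma or by the methods' t-test. At an unadjusted p below 0.05 there were 3, and 2 passed the FDR, all with negative differences.

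In the synthesis of other parts of glycans, B4GALNT1 changed most. This transferase adds GalNAc to the gangliosides GM3 and GD3. Its signals were 3.95, 3.94 and 4.01 at normal density, all at background, and 6.55, 6.37 and 6.41 at high density. The rise was at least 3.53-fold over the background level (measured difference 2.47 ± 0.08, limma's adjusted p = 9.85e-06). It was the only called gene in its list of 18 (5.56% called, against 7.49% of the table). Its family name B4GALNT is not part of the symbol rule above. MAN1C1, a mannosidase that trims N-glycans before branching, rose from 5.61 ± 0.06 to 6.67 ± 0.10 (difference 1.06 ± 0.08, limma's adjusted p = 0.00017). MAN1C1 was the only called gene of 7 in its list (14.3%, against 7.49% of the table). GCNT4 and GCNT2, which branch O-glycans and poly-N-acetyllactosamine, were called higher at background, with 0.82 and 0.60, and the call of GCNT2 was lost without replicate 2 of normal or replicate 3 of high density (0.55 at the lowest). The other transcript cluster of GCNT2 was at 0.32 and not called. Among 17 enzymes of glycosaminoglycan chain synthesis, 1 was called (5.88%, against 7.49% of the table). DSEL, related to the epimerase of dermatan sulfate, fell by 0.66 from 8.95 ± 0.06 (limma's adjusted p = 0.00178). By limma and by the methods' t-test 0 of the 17 rose, and 4 positive differences had an unadjusted p below 0.05.

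Of 8 genes that remove sulfate, glycosaminoglycan or sialic acid, 2 rose and 1 fell (37.5% called, against 7.49% of the table). SULF1 removes sulfate from glucosamine in heparan sulfate outside the cell. Its signals were 5.10, 4.93 and 4.96 at normal and 6.62, 6.94 and 6.68 at high density. The groups were far apart, by 1.76 ± 0.10 or 3.38-fold (limma's adjusted p = 6.77e-05), whereas SULF2, with the same activity, had a difference of -0.40 ± 0.07 that passed the FDR alone. HPSE, the enzyme that cuts heparan sulfate, had signals of 7.64, 7.96 and 7.27 at high density against 6.93 to 6.98 at normal density. Its rise of 0.67 ± 0.16 (limma's adjusted p = 0.0251) was called in only 1 of the 6 fits with a culture left out, the fit without replicate 3 of high density (range 0.51 to 0.85). NEU3, the sialidase of gangliosides in the plasma membrane, fell from 6.61, 6.46 and 6.57 to 5.59, 5.97 and 5.80, without overlap (difference -0.76 ± 0.11, limma's adjusted p = 0.00275).

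Proteoglycan core proteins, the acceptors of the chains that xylosyltransferases start, had 8 rises and 1 fall among 24 genes. In this list, chosen with earlier results known, 33.3% were called higher and 4.17% lower. Over all transcript clusters the shares were 3.97% and 3.51%. SDC1, a heparan sulfate proteoglycan of epithelial surfaces, had signals of 5.63, 5.85 and 5.88 at normal and 7.70, 7.41 and 7.56 at high density (difference 1.77 ± 0.11, 3.41-fold, limma's adjusted p = 7.01e-05). CSPG5, a membrane chondroitin sulfate proteoglycan, rose at least 3.02-fold and COL18A1, a basement membrane collagen with heparan sulfate chains, at least 2.32-fold, since both were at background in all normal cultures. The other 5 were SDC4, CD44, CSPG4, GPC4 and BGN, of which BGN was at background. SRGN, the proteoglycan of secretory granules, was the only one to fall. It was at 10.92, 11.05 and 10.97 at normal and at 8.94, 9.16 and 8.74 at high density, which was far below (difference -2.04 ± 0.11, 0.244-fold, limma's adjusted p = 5.04e-05). Among the galectins, which bind galactose-bearing glycans, 1 of 10 transcript clusters was called (10.0%, against 7.49% of the table). LGALS3 fell from 8.55 ± 0.07 to 7.88 ± 0.12 (difference -0.67 ± 0.08, limma's adjusted p = 0.00175), and its other transcript cluster had -0.51 and passed the FDR alone.

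**Figure D4:**
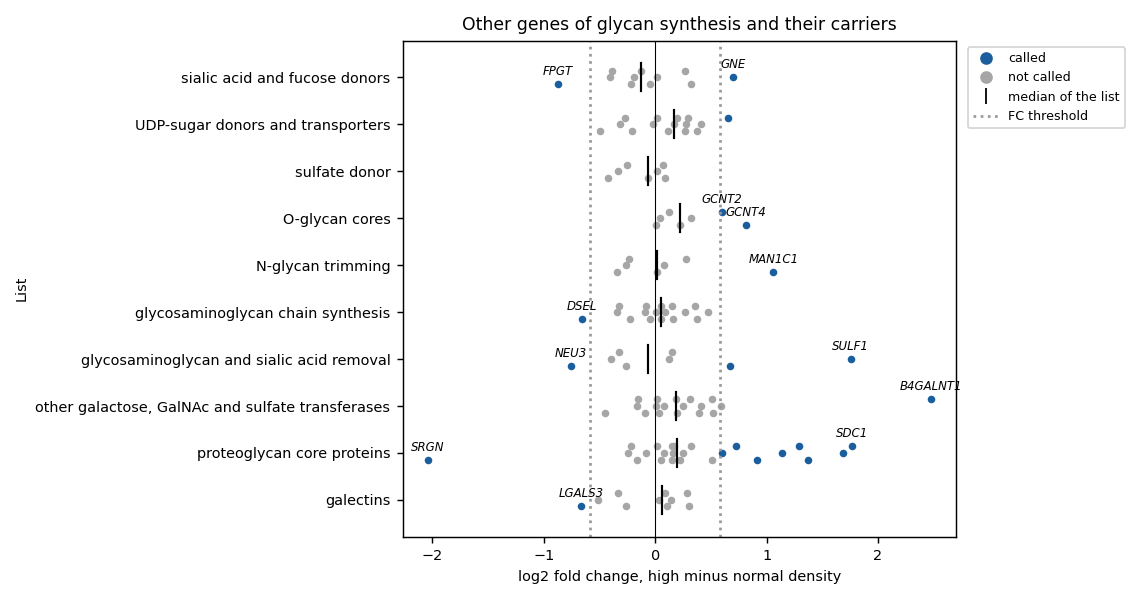
Log2 fold change, high minus normal density, of the transcript clusters of 10 lists of genes around the transferases, with the median of each list as a black line and the FC threshold of 0.585 dotted. Called genes at the ends of a list are named where the text describes them, from B4GALNT1 at 2.47 to SRGN at -2.04. The points are offset vertically only to keep them apart.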

How the data were processed

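RNA of 3 GC cultures of normal and 3 of high density was measured on Bovine Gene 1.0 ST Arrays. The authors processed the scans in Expression Console with RMA (background correction, normalization and gene-level summary, default settings) and deposited log2 signals per transcript cluster. The genome build of the annotation is not given in the sources used here. The deposited table has 0 columns of other samples and array medians of 4.34 to 4.43, and no further normalization was applied. For arrays, the number of cultures limits the precision.

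All 26773 transcript clusters were fitted with limma 3.58.1 in R 4.3.3 (lmFit, then eBayes with 1 common prior variance and density as the only term), adjusted by Benjamini-Hochberg. The call thresholds were those of the study's methods. Where all signals of the dimmer group were at background and the mean of the brighter group was above it, a fold is given against the background level as a lower bound. Where neither mean was above background, no fold is given. Symbols are those of the table. By accession, 77 of the 106 transcript clusters were found in RefSeq (ARS-UCD2.0), 5 under another symbol, GALNTL2 as GALNT15 and FUT5 as FUT6 beside those in the text. Alternatives were the methods' t-test (their analysis of variance for 2 groups), eBayes with trend and robust prior, array weights, a replicate block, other scalings, a filter at the background level, averaging transcript clusters of a symbol, an FDR of 0.01, no FC threshold, and leaving out each culture.

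The enzymes and the lists of genes around them and of marker genes were chosen with earlier results of these data known. Named were all called members and all past the FDR, the latter with values if within 0.15 (log2) of the FC threshold or largest of their class, the member with the largest difference in classes without a call, and up to 3 called genes in each direction per list, of which 1 is not reported here. ST8SIA1, ST3GAL5, NCAM1 and other genes outside this rule were chosen for their role after their values were seen. The scripts were tested on simulated data. Python 3.11.15 with matplotlib 3.10.9 drew the figures.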

Additional observations from a re-analysis of the deposited data

How the results depend on the processing

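The direction of the called enzymes, of those past the FDR, of CHST6 and of up to 3 called listed genes in each direction per list was the same in every alternative that gave a value. For the other genes named this was not examined. Of the 17 called enzymes, 11 were called in every alternative that gave a value. The filter at the background level leaves out ST8SIA2, GALNT3, FUT9 and NDST3. The methods' t-test lost GALNTL4, GALNT13, B3GNT8 and GALNT3, shifting the arrays to the same median lost ST3GAL1 and NDST3, a second quantile normalization lost NDST3, and an FDR of 0.01 lost B3GNT8 and GALNT3. CHST6 was called with array weights, with the filter at the background level and without replicate 2 of high density. Without the FC threshold the calls were 5106 over the table, 29 higher and 8 lower among the enzymes and 27 higher and 19 lower among the other listed genes. With the replicate block the calls were 2020 over the table and 14 higher and 2 lower among the enzymes, with GALNT3 lost. Deviations from the group means correlated between -0.046 and 0.046 across transcript clusters for cultures with the same number. For cultures with different numbers they correlated between -0.071 and 0.09. With so few cultures per group, these values cannot show whether same-numbered cultures shared a pool. In the other alternatives, those with a culture left out included, the enzymes had 11 to 16 rises and 2 falls, the other listed genes 14 to 17 and 4 to 6, and all transcript clusters together 1611 to 2434 calls. The cause of these shifts was not tested. Signals at background in both groups limit what could be seen for 44 enzymes.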
